A study of Mus musculus with 16 samples.

Results

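Olfactory sensory neurons that choose the same odorant receptor send their axons to the same glomeruli of the olfactory bulb, and a small group of cell surface proteins whose expression follows neuronal activity takes part in sorting these axons from their neighbours. The 9 genes described here are Kirrel2, Kirrel3, Pcdh10, Pcdh17, Pcdh19, Epha5, Efna5, Sema7a and Cntn4. They were chosen by name as glomerular segregation molecules known to follow activity. Earlier results of these data were known when that choice was made. All 9 are among the 19505 genes measured, each with 1 probe set. Expression came from sorted cells of mouse olfactory mucosa on Clariom S arrays, and every level below is a deposited log2 value.

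The mice were C57BL/6 of both sexes, 7 to 12 weeks old, and carried S100a5-tauGFP, a reporter in which GFP is driven by S100a5, the gene of a calcium-binding protein that rises with activity in these neurons. They stayed singly in chambers of clean flowing air for 40 hours, and from hour 26 they received 10 second pulses of bourgeonal, a floral aldehyde, or of filtered air as vehicle every 20 minutes. Cells of 3 mice were sorted for each library, which gave 4 odor pools and 4 vehicle pools. Both gates of every pool were put on arrays, so the 16 libraries form 4 groups of 4: odor titled GFP-, odor titled GFP+, vehicle titled GFP- and vehicle titled GFP+. All groups share the strain, the reporter and the chamber, every value is an average over the mice of a pool, and the concentration of the odor is not given in the labels.

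For all 16 samples the gate named in the title is the opposite of the gate under cell type, and groups follow the titles here. S100a5 itself read 16.14, 16.24, 16.51 and 16.07 in odor pools 1 to 4 titled GFP-, against 15.07, 15.23, 15.67 and 14.62 titled GFP+. In vehicle pools it read 15.69, 16.17, 16.63 and 15.89 titled GFP-, against 14.84, 15.53, 15.46 and 14.75 titled GFP+. The titled GFP- value was thus the higher in 8 of 8 pools, which goes against the titles. Every gate ratio below is the library titled GFP- over the library titled GFP+ of the same pool. The labels do not say whether replicate numbers mark separate exposures, so p-values measure the spread between these pools. The tests below take the 8 pools as separate units, whereas same-numbered odor and vehicle libraries deviated together (r of 0.0879 to 0.210). Were only the 4 replicate numbers separate units, no exact p-value under 0.05 could be reached for gate ratios or their odor difference. The limma p-values of gate ratios rest on the same 8 pools.

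Axons of olfactory neurons first find their rough place in the bulb through gradients of guidance receptors and then segregate locally through adhesive and repulsive contacts. In mice, the level of several contact molecules in a neuron depends on cyclic AMP and on the cyclic nucleotide-gated channel, and hence on the receptor it expresses. Kirrel2 and Kirrel3 are homophilic immunoglobulin proteins found in complementary sets of neurons, and Epha5 and its ligand Efna5 form a repulsive pair that is also complementary between neurons.

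The sequence upstream of the 5 genes with a higher level in libraries titled GFP- is shown because these genes share the sign of their gate ratio and cyclic AMP response elements are the textbook route from neuronal activity to transcription. Each line gives 250 bases that end just before the RefSeq gene start (GRCm38.p6), 5′ to 3′ on the strand of the gene. Capitals mark the core of the cyclic AMP response element, TGACG, the CCAAT box CCAAT and the GC box GGGCGG on either strand. Kirrel2 lies at chr7:30457516-30457765 (minus strand), Pcdh10 at chr3:45378148-45378397 (plus), Pcdh17 at chr14:84443313-84443562 (plus), Epha5 at chr5:84417383-84417632 (minus) and Sema7a at chr9:57939862-57940111 (plus).
Kirrel2: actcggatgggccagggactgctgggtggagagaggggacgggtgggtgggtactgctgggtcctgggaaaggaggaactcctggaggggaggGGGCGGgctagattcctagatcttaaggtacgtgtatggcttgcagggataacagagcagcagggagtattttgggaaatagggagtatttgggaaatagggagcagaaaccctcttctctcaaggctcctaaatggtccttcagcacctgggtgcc
Pcdh10: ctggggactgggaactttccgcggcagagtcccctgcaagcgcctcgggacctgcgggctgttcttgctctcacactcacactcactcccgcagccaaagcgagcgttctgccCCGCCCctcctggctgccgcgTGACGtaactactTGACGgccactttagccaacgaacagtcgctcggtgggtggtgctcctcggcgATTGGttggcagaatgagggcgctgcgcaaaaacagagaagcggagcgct
Pcdh17: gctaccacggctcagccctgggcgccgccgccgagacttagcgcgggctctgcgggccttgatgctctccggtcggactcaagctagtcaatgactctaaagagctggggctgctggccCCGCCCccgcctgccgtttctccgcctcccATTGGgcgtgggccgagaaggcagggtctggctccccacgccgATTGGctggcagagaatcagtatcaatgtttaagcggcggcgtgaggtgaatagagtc
Epha5: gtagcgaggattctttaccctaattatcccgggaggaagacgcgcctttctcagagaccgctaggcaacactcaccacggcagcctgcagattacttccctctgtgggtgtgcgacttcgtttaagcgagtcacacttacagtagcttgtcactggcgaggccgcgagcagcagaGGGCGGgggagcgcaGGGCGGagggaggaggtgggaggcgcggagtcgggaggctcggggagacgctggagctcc
Sema7a: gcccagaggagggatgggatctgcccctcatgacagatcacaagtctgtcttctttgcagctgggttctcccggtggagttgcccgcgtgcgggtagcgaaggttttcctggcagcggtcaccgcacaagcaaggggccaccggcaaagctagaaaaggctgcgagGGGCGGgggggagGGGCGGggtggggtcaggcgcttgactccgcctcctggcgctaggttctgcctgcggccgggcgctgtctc

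Pcdh10 alone of these windows holds the core TGACG, with copies that begin at -116 and -103 from the start, and 17.8% of all 32851 promoters in the table hold at least 1 copy in a window of the same length. The full element TGACGTCA occurs in 1.55% of all promoters and in none of the 8 members with a sequence in the table. A GC box is present in each of the printed windows, as in 32.7% of all promoters, and begins at -157 in Kirrel2. A CCAAT box is present in Pcdh10 and, with 2 copies, in Pcdh17, as in 33.8% of all promoters. The GC content of the printed windows ranges from 56.4% in Kirrel2 to 66.4% in Sema7a, against a median of 52.4% over all promoters. These features are not particular to the printed genes. Among members without a call, Efna5 holds 4 GC boxes at 74.8% GC, and Pcdh19 holds 1 GC box and 1 CCAAT box at 69.2% GC. The windows of Cntn4 hold neither box, at 44.4% and 50.0% GC. A match describes these letters only, and its part in expression was not tested.

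All 9 genes lay above background in all 16 libraries: the guide used, the 95th percentile of vomeronasal receptor genes, lay between 4.29 and 4.97. Over the 8 pools, 5 of the 9 genes were higher in libraries titled GFP- (Kirrel2, Pcdh10, Pcdh17, Epha5 and Sema7a), 1 was lower (Kirrel3) and 3 did not pass the test (Pcdh19, Efna5 and Cntn4). Among all genes 27.6% passed at a limma adjusted p under 0.05, 14.4% as higher and 13.2% as lower. The direction of the gate ratio was known from earlier results when members were chosen. Their share beside that of all genes is thus no independent support. Each of the 5 genes was higher in 8 of 8 pools, as were 9.74% of all genes, and no member was lower in 8 of 8, as were 10.6% of all genes. The median log2 ratio was 0.74 over the 9 members and 0.10 over all genes. When libraries were centred on their medians these became 1.10 and 0.46, and 7 of 9 members were higher (Efna5 and Cntn4 with the 5) and none lower, beside 73.5% of all genes called higher. The share of higher genes among those called over all pools was 52.2% as deposited, 88.9% centred, 62.9% after quantile normalization and 32.1% against 5 mature neuron genes. Ranked by the ratio, Pcdh10, Kirrel2, Epha5, Sema7a and Pcdh17 stood within the top 1.65%, 2.08%, 2.55%, 2.88% and 2.96% of genes, and Kirrel3 stood at 87.4%.

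**Figure D1:**
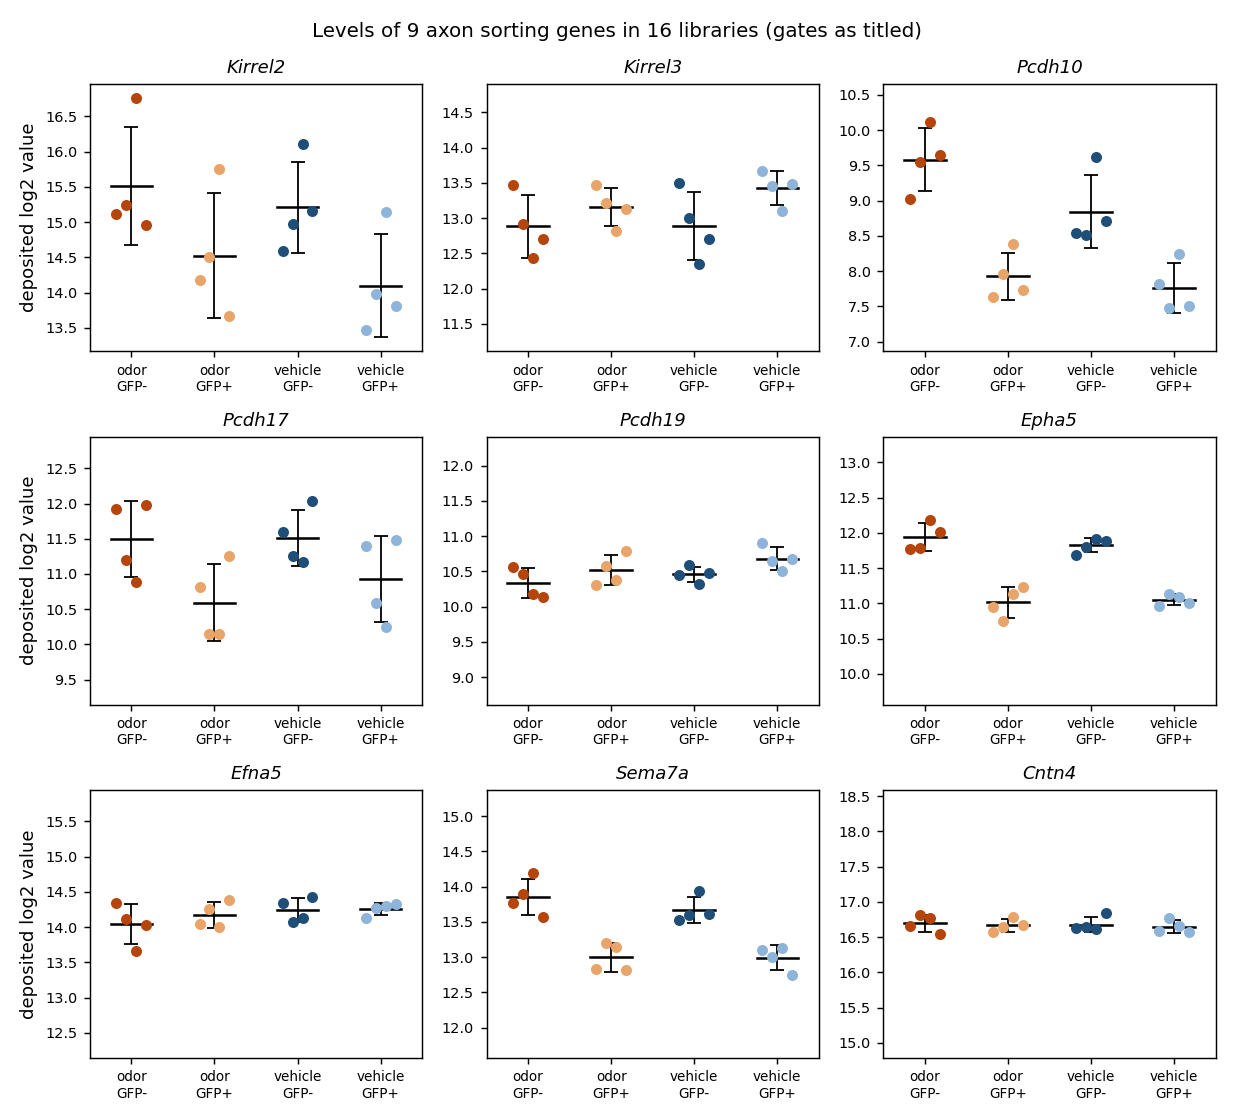
Deposited log2 level of each of the 9 genes in the 16 libraries, by treatment and titled gate; points are pools, horizontal lines the mean and bars ± SD (n = 4). Each panel spans the same number of log2 units around its own centre. The gates separate fully for Pcdh10, Epha5 and Sema7a, whereas the points for Efna5 and Cntn4 lie at the same height in all 4 groups.

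The sort also separated cell types. Of markers fixed by list, 7 of 7 immature neuron genes were lower in libraries titled GFP-, as were 13.2% of all genes. Their median log2 ratio was -0.94, with Gap43 at -2.62, Gng8 at -4.73 and Stmn2 at -0.58. The summed log2 level was 14.75 to 15.10 titled GFP- and 15.46 to 15.76 titled GFP+. After centring 5 of the 7 were lower and Dbn1 turned to 0.09. Also lower were 9 of 9 immune genes (median -6.69), 6 of 6 microvillar genes (-3.39), 4 of 4 progenitor genes (-2.80) and 6 of 6 sustentacular genes (-1.83). Cd3e, Neurog1 and Ermn of these lists lay below background. Ermn lost its call after centring and after quantile normalization (limma adjusted p = 0.0813 and 0.063). The summed immune level was 7.35 to 8.88 titled GFP- and 16.76 to 18.03 titled GFP+. Mature neuron markers were present at nearly the same summed level in both gates, 20.84 to 21.01 titled GFP- and 20.85 to 20.98 titled GFP+, and 1 of 6 passed the test (Adcy3, 0.30). After centring all 6 were higher (median 0.39), as were 73.5% of all genes. Both measured erythroid genes were lower (-1.91), whereas all 3 horizontal basal cell and all 4 endothelial markers lay below background. Of 2 respiratory cilia genes, Tekt1 was higher (0.54, limma adjusted p = 0.00185). Lower were 1 of 3 Bowman gland genes (Sox9, -5.12), 1 of 3 stromal genes (Dcn, -0.99) and 1 of 4 ensheathing glia genes (Sox10, -0.30). Sox10 lay below background and turned to 0.05 after centring. The part of these cells in the ratios of the 9 genes was not tested. In pools of sorted cells, fewer cells of a type and less RNA per cell cannot be told apart.

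Kirrel2, the adhesion molecule whose level is known to rise with activity, was higher in libraries titled GFP- by 2.07-fold. It read 15.11, 15.25, 16.76 and 14.96 in odor pools 1 to 4 titled GFP-, against 14.17, 14.50, 15.75 and 13.67 titled GFP+. In vehicle pools the values were 14.60, 14.98, 16.11 and 15.15 titled GFP-, against 13.46, 13.98, 15.15 and 13.81 titled GFP+. The gates overlap when all pools are put together, because pools differ by more than the gates do, yet the library titled GFP- was the higher in 8 of 8 pools. The ratio was 1.05 on the log2 scale (95% interval 0.85 to 1.25, SD over pools 0.19, n = 8; limma adjusted p = 7.5e-06; exact two-sided sign-flip test over 8 pools, p = 0.00781, the smallest that 256 flips allow). Set against the mean of 5 mature neuron genes in each library, a scaling chosen after the data were seen, the ratio was 0.96 (adjusted p = 1.3e-05).

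Kirrel3, the related protein that is known to fall with activity, moved the other way. Its levels in odor pools 1 to 4 were 13.48, 12.92, 12.43 and 12.71 titled GFP-, against 13.47, 13.21, 12.81 and 13.13 titled GFP+. Vehicle pools had 13.50, 13.00, 12.35 and 12.70 titled GFP-, against 13.67, 13.46, 13.10 and 13.48 titled GFP+. It was lower titled GFP- in 7 of 8 pools, with odor pool 1 at the same level in both gates, and the gates overlap across pools. The log2 ratio was -0.41 (95% interval -0.62 to -0.19, SD 0.27, n = 8 pools; limma adjusted p = 0.0118; exact sign-flip p = 0.0156). This call was lost when libraries were centred on their medians (-0.05, adjusted p = 0.631) and without the pool block (-0.41, adjusted p = 0.099), and was kept against the 5 mature neuron genes (-0.50, adjusted p = 0.00258). Immature neuron genes were lower in the same libraries, as given above, and the part of those cells in the Kirrel3 ratio was not tested.

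Pcdh10, a delta protocadherin that mediates homophilic adhesion and is induced by activity in olfactory neurons, had the largest gate ratio of the 9 genes. The levels in odor pools 1 to 4 were 9.02, 9.55, 10.11 and 9.65 titled GFP-, against 7.63, 7.95, 8.39 and 7.73 titled GFP+. For vehicle pools they were 8.54, 8.51, 9.61 and 8.71 titled GFP-, against 7.82, 7.48, 8.24 and 7.51 titled GFP+. The lowest library titled GFP- lies above the highest library titled GFP+, with no overlap of 8 against 8 libraries. The ratio was 1.37 (95% interval 1.15 to 1.59, SD 0.38, n = 8 pools), or 2.58-fold (limma adjusted p = 1.95e-06; exact sign-flip p = 0.00781).

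Pcdh17, a delta protocadherin of the same subfamily, was also higher, by 1.67-fold. Odor pools 1 to 4 read 11.92, 11.20, 10.88 and 11.98 titled GFP-, against 10.81, 10.15, 10.15 and 11.26 titled GFP+. Vehicle pools read 11.59, 11.26, 11.17 and 12.04 titled GFP-, against 11.40, 10.59, 10.25 and 11.48 titled GFP+. Pools 2 and 3 were the low ones in every group, so the gates overlap across pools although each pool was higher titled GFP-. The log2 ratio was 0.74 (95% interval 0.52 to 0.97, SD 0.29, n = 8 pools; limma adjusted p = 0.000273; exact sign-flip p = 0.00781), with its smallest value, 0.19, in vehicle pool 1.

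Pcdh19, the third delta protocadherin of the set, did not pass the test. It read 10.57, 10.46, 10.18 and 10.13 in odor pools titled GFP-, against 10.31, 10.57, 10.38 and 10.79 titled GFP+. Vehicle pools gave 10.45, 10.59, 10.32 and 10.47 titled GFP-, against 10.90, 10.65, 10.50 and 10.67 titled GFP+. The value was lower titled GFP- in 7 of 8 pools, with odor pool 1 the exception, and the log2 ratio was -0.20 (95% interval -0.44 to 0.04; limma adjusted p = 0.188; exact sign-flip p = 0.0703, n = 8 pools). Centring libraries on their medians turned its sign.

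Epha5, a receptor tyrosine kinase that gives repulsion on contact with A-class ephrins, was higher in libraries titled GFP-. The SD of its gate ratio over pools was the smallest of the 9 genes (0.137, with Cntn4 close at 0.141). The levels of Epha5 were 11.78, 11.79, 12.18 and 12.02 in odor pools titled GFP-, against 10.95, 10.75, 11.14 and 11.23 titled GFP+. Vehicle pools had 11.69, 11.81, 11.91 and 11.89 titled GFP-, against 10.97, 11.14, 11.10 and 11.01 titled GFP+. All 8 libraries titled GFP- lie above all 8 titled GFP+. The log2 ratio was 0.85 (95% interval 0.67 to 1.03, SD 0.14, n = 8 pools), or 1.80-fold (limma adjusted p = 1.45e-05; exact sign-flip p = 0.00781).

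Efna5, the membrane-anchored ligand of Epha5, showed no call in either direction. It read 14.35, 14.12, 13.67 and 14.03 in odor pools titled GFP-, against 14.05, 14.26, 14.00 and 14.39 titled GFP+. The vehicle values were 14.34, 14.08, 14.12 and 14.42 titled GFP-, against 14.13, 14.28, 14.30 and 14.32 titled GFP+. The gates overlap, with 3 pools higher and 5 lower titled GFP-. The log2 ratio was -0.07 (95% interval -0.30 to 0.15; limma adjusted p = 0.615; exact sign-flip p = 0.398, n = 8 pools), and it was 0.28 with adjusted p = 0.0263 after centring libraries on their medians. The interval leaves out a ratio of the size seen for Epha5.

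Sema7a, a membrane-anchored semaphorin that acts through plexin C1 and integrins and is known to be activity-dependent in these neurons, was higher by 1.70-fold. Odor libraries of pools 1 to 4 read 13.77, 13.89, 14.19 and 13.57 titled GFP-, against 12.84, 13.20, 13.14 and 12.81 titled GFP+. Vehicle libraries read 13.52, 13.59, 13.94 and 13.61 titled GFP-, against 13.11, 13.00, 13.12 and 12.75 titled GFP+. The gates do not overlap over the 16 libraries. The log2 ratio was 0.77 (95% interval 0.57 to 0.96, SD 0.20, n = 8 pools; limma adjusted p = 7.81e-05; exact sign-flip p = 0.00781). Gates without overlap thus held for 3 of 9 members, all higher titled GFP-, and for 9.52% of all genes, 2.62% higher and 6.9% lower.

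Cntn4, also called BIG-2, is an immunoglobulin protein with a lipid anchor that was linked to axon sorting in mice. Its values were 16.66, 16.81, 16.78 and 16.54 in odor pools titled GFP-, against 16.57, 16.64, 16.79 and 16.67 titled GFP+. In vehicle pools they were 16.62, 16.64, 16.61 and 16.84 titled GFP-, against 16.59, 16.77, 16.65 and 16.57 titled GFP+. The groups overlap throughout, with 4 pools higher and 4 lower. The log2 ratio was 0.03 (95% interval -0.16 to 0.22; limma adjusted p = 0.818; exact sign-flip p = 0.594, n = 8 pools), so a change as large as that of any of the 5 higher genes lies outside its interval, but it was 0.38 with adjusted p = 0.00242 after centring libraries on their medians and -0.07 against the 5 mature neuron genes. Omp, the marker of mature olfactory neurons, had a ratio of 0.04 (95% interval -0.13 to 0.21, adjusted p = 0.717) on the deposited scale and of 0.39 (adjusted p = 0.00129) after the same centring.

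Ordered by mean level, both groups titled GFP- lay above both titled GFP+ for Pcdh10, Epha5 and Sema7a, and the step between the gates exceeded the spread. The lower of the groups titled GFP- was vehicle in each case, with means of 8.84 ± 0.52 for Pcdh10, 11.83 ± 0.10 for Epha5 and 13.67 ± 0.19 for Sema7a (SD, n = 4). The higher of the groups titled GFP+ was odor for Pcdh10 (7.92 ± 0.34) and Sema7a (13.00 ± 0.20), and vehicle for Epha5 (11.05 ± 0.08). For the other 6 genes no neighbours in the order differed beyond their spread.

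**Figure D2:**
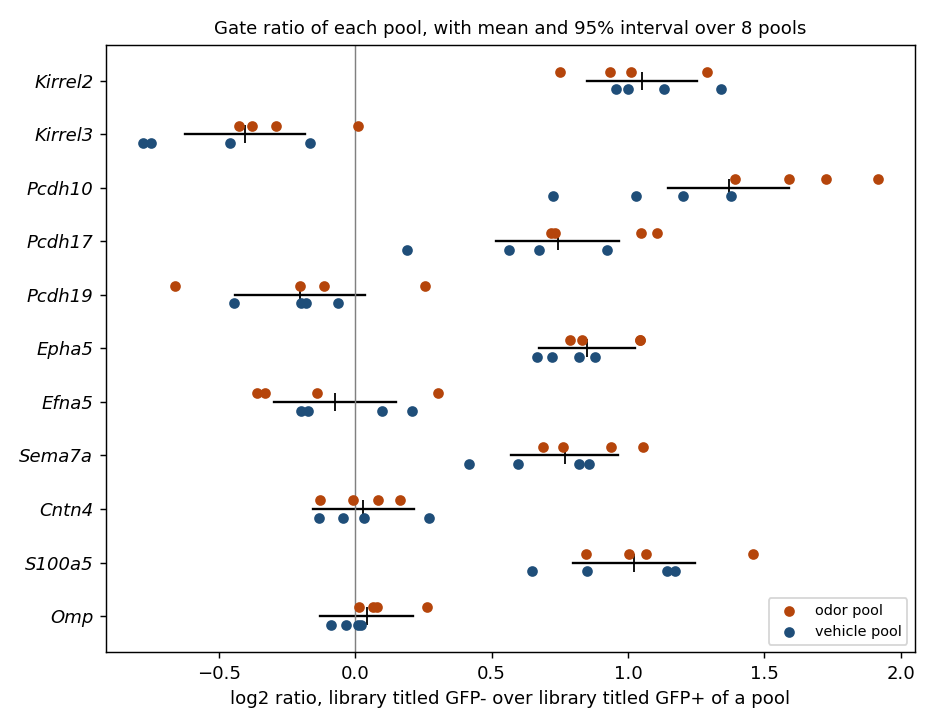
Log2 ratio of the library titled GFP- over the library titled GFP+ in each pool, for the 9 genes, S100a5 and Omp; points are odor pools (upper row of a gene) and vehicle pools (lower row), and the black tick and line give the limma mean and 95% interval over 8 pools. Points of Kirrel2, Pcdh10, Pcdh17, Epha5, Sema7a and S100a5 all lie right of 0, and the odor points of Pcdh10 (1.39 to 1.92) lie right of its vehicle points (0.73 to 1.38).

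Within each treatment the same 5 genes passed as higher. Higher genes made up 43.3% of all calls in odor pools as deposited (87.3% centred, 55.0% quantile, 24.1% against mature neuron genes) and 38.5% in vehicle pools (87.3%, 53.7% and 29.9%). In odor pools the ratios were 1.66 for Pcdh10 (limma adjusted p = 1.15e-05), 1.00 for Kirrel2 (0.000262), 0.93 for Epha5 (0.000168), 0.90 for Pcdh17 (0.00119) and 0.86 for Sema7a (0.000649). These 5 of 9 stand beside 7.82% of all genes called higher and 10.2% called lower in odor pools, and none of the 9 was called lower. Kirrel3 had a ratio of -0.27 there (adjusted p = 0.219). In vehicle pools the ratios were 1.11 for Kirrel2 (limma adjusted p = 0.000134), 1.08 for Pcdh10 (0.00031), 0.77 for Epha5 (0.000698), 0.67 for Sema7a (0.00372), 0.59 for Pcdh17 (0.0179) and -0.54 for Kirrel3 (0.0242). The vehicle counts of 5 higher and 1 lower stand beside 6.23% and 9.95% of all genes. Without the pool block Kirrel2 lost its call in odor pools (adjusted p = 0.182) and in vehicle pools (0.145), as did Pcdh17 (0.0744 in odor pools and 0.285 in vehicle pools) and Kirrel3 in vehicle pools (0.174). The vehicle call of Pcdh17 was also lost when pool 2, 3 or 4 was left out (adjusted p = 0.0725, 0.0848 and 0.0562), and so was that of Kirrel3 (0.0631, 0.0998 and 0.108).

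Whether bourgeonal changed the gate ratio was tested as the difference between odor and vehicle pools. None of the 9 genes passed, nor did any of the 19505 genes (0%; 1109 at an unadjusted p under 0.05, smallest adjusted p = 0.172). Pcdh10 came nearest among the members, with ratios of 1.39, 1.59, 1.73 and 1.92 in odor pools, against 0.73, 1.03, 1.38 and 1.20 in vehicle pools. The lowest odor pool lies just above the highest vehicle pool, and the means were 1.66 ± 0.22 and 1.08 ± 0.28 (SD, n = 4 odor and 4 vehicle pools). The difference was 0.57 (95% interval 0.13 to 1.02; limma p = 0.0162, adjusted p = 0.823; exact two-sided permutation test p = 0.0286, the smallest that 70 assignments allow). Pools of the treatments did not overlap in this way for 3.49% of all genes, 1.89% of them higher with odor and 1.6% lower.

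The other members had differences between -0.12 for Efna5 and 0.31 for Pcdh17. Kirrel2 had a difference of -0.11 (95% interval -0.51 to 0.29; limma adjusted p = 0.957; exact permutation p = 0.429), which leaves out a change as large as its gate ratio. That of Kirrel3 was 0.27 (95% interval -0.17 to 0.71; adjusted p = 0.888; exact permutation p = 0.2). For Epha5 it was 0.15 (-0.20 to 0.51; adjusted p = 0.921) and for Sema7a 0.19 (-0.21 to 0.58; adjusted p = 0.915). A p that misses the threshold does not show that bourgeonal and air acted alike.

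Bourgeonal against air within a gate gave no call for any of the 9 genes. Among libraries titled GFP-, Pcdh10 averaged 9.58 ± 0.45 with odor and 8.84 ± 0.52 with vehicle (SD, n = 4 each), a difference of 0.74 (95% interval 0.11 to 1.36; limma adjusted p = 0.996; exact permutation p = 0.0857), and the groups overlap. The remaining members differed there by -0.20 for Efna5 to 0.31 for Kirrel2, and 0 of 19505 genes passed (0%; 869 at an unadjusted p under 0.05). Among libraries titled GFP+, members differed by -0.33 for Pcdh17 to 0.42 for Kirrel2, with exact permutation p of 0.4 and 0.486 (n = 4 each). Leaving out 1 pool at a time moved these differences between -0.56 and -0.15 for Pcdh17 and between 0.0129 and 0.77 for Kirrel2. In that gate 2 of 19505 genes passed (0.0103%; 827 at an unadjusted p under 0.05).

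Pools of 1 group differed from each other. Replicate number 3 had the highest Kirrel2, the highest Pcdh10 and the lowest Kirrel3 of its group in each of the 4 groups and the meaning of a number common to odor and vehicle is not in the labels. Over the 8 pools, the levels of all 36 pairs of members were correlated within each gate, 72 relations in all. After Benjamini-Hochberg adjustment 1 relation passed, that of Kirrel2 with Sema7a in libraries titled GFP-, with Pearson r = 0.93 (exact p = 0.000174, adjusted 0.0125) and Spearman rho = 0.98 (exact p = 0.000397, adjusted 0.0286). It was 0.93 among odor pools and 0.99 among vehicle pools, but without the 2 pools farthest from the Kirrel2 median r was 0.76 (exact p = 0.075), so the call, though not the direction, rests on those pools. These p-values take the 8 pools as exchangeable, whereas same-numbered odor and vehicle libraries deviated together. Were only the 4 replicate numbers exchangeable, their 24 orders could give no p under 0.0417, and 1 relation alone among 72 could not pass the adjustment. In libraries titled GFP+ the same pair had r = 0.54 (exact p = 0.168, adjusted 0.327) and rho = 0.64 (exact p = 0.0962).

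Kirrel2 and Kirrel3 ran against each other across pools, without passing the adjustment. Across gates they did so as deposited, but after centring the Kirrel3 ratio was -0.05 (limma adjusted p = 0.631). The levels of Kirrel2 and Kirrel3 had r = -0.74 (exact p = 0.0369, adjusted 0.176) and rho = -0.76 titled GFP-. Titled GFP+ they had r = -0.83 (exact p = 0.00923, adjusted 0.135) and rho = -0.74. Leaving out the 2 farthest pools gave r = -0.50 titled GFP- and -0.41 titled GFP+. Among odor pools r was -0.64 titled GFP- and -0.71 titled GFP+, and among vehicle pools -0.93 titled GFP- and -0.99 titled GFP+. Kirrel2 with Pcdh17 had r = -0.84 titled GFP+ (exact p = 0.0067, adjusted 0.135; rho = -0.83), although both genes were higher titled GFP- in every pool. That relation was -0.82 among odor pools and -0.85 among vehicle pools, and -0.89 without the 2 farthest. For Epha5 with Efna5 r was -0.79 titled GFP- (exact p = 0.0221, adjusted 0.135; rho = -0.62) and 0.19 titled GFP+ (exact p = 0.664; rho = 0.43), and without the 2 farthest pools it was -0.15 titled GFP-.

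**Figure D3:**
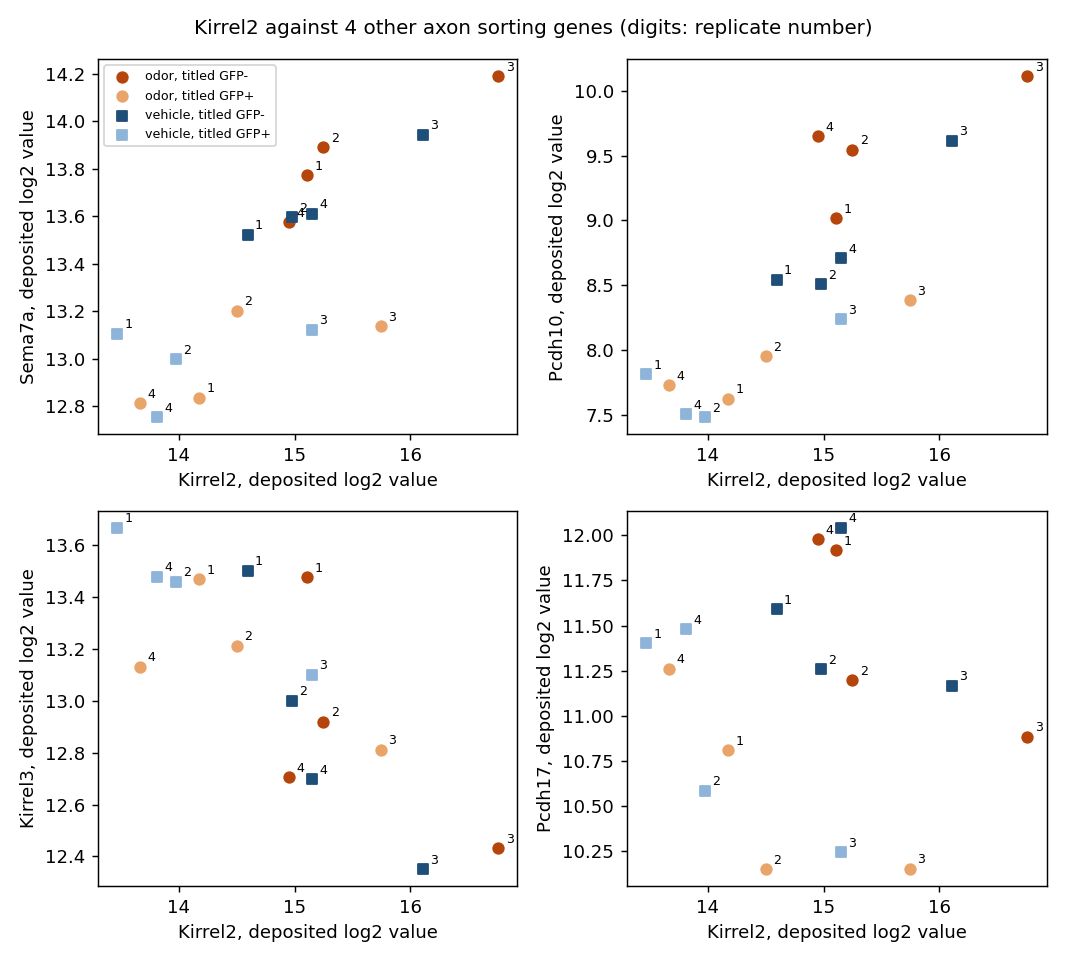
Deposited log2 level of Kirrel2 (x axis) against Sema7a, Pcdh10, Kirrel3 and Pcdh17 (y axes) in the 16 libraries, with the replicate number beside each point and colour for treatment and titled gate. Replicate 3 lies at the right in each group (16.76 in odor titled GFP-), and r with Kirrel2 over the 8 pools is 0.93 titled GFP- and 0.54 titled GFP+ for Sema7a, and -0.67 titled GFP- and -0.84 titled GFP+ for Pcdh17; only the 0.93 passed the adjustment.

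Levels of the members were also set against S100a5 over the 8 pools in each gate, 18 relations of which none passed the adjustment. The strongest were Kirrel2 titled GFP- (r = 0.85, exact p = 0.00861, adjusted 0.0517; rho = 0.81), Sema7a titled GFP- (r = 0.83, exact p = 0.00828, adjusted 0.0517; rho = 0.86) and Pcdh17 titled GFP+ (r = -0.88, exact p = 0.00776, adjusted 0.0517; rho = -0.76). Without the 2 farthest pools r was 0.82, 0.88 and -0.85 in the same order (exact p = 0.0778, 0.0208 and 0.0403). All these p-values take the pools as exchangeable. With only the 4 replicate numbers exchangeable, no p under 0.0417 could arise. The gate ratios of the 9 members against that of S100a5 had r between -0.40 and 0.59 in 9 relations, with a smallest exact p of 0.124 and none passing the adjustment.

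The genes with the levels most like each member over the 16 libraries are given as a description, since these libraries share gate, pool and array. The comparison took in 10305 genes above background and left out the members themselves, odorant receptor genes and genes with Gm or Rik names. A gene of those kinds could thus not be named here, however like a member it was. Among the genes compared, Kirrel2 was nearest to Epha7 (r = 0.96), Jag1 (0.95) and Smim13 (0.94). Kirrel3 was nearest to Ttyh2 (0.88), Crmp1 (0.88) and Dact1 (0.86). The nearest to Pcdh10 were Panx1 (0.91), Kcnmb3 (0.90) and Rarb (0.90), and those to Pcdh17 were Dnajb12, Pdxk and Pdk4 (0.93 each). Epha5 was nearest to Scn4b (0.96), Apba1 (0.95) and Rgs7 (0.94), and Sema7a to Hivep2 (0.95), Kcnmb3 (0.94) and Scn4b (0.93). For the 3 members without a call r was lower, but r over the 16 libraries includes the gate difference, so this contrast cannot be separated from the gate calls. Pcdh19 had Fam171a2 (0.82), Stbd1 (0.79) and Tcf12 (0.77), Efna5 had Akap6 (0.81), Abhd2 (0.77) and Scaper (0.76), and Cntn4 had Sirt5 (0.80), Zkscan3 (0.79) and Manea (0.78).

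Of 107 other measured genes in 10 lists of families and pathways, 27 were higher and 15 lower in libraries titled GFP-, with a median log2 ratio of 0.10. Among all genes 14.4% were higher and 13.2% lower. After centring, which moved the median of all genes to 0.46, 77 of the relatives were higher and 11 lower, beside 73.5% of all genes higher. The centred counts of each list below stand beside that same share. Among 7 other delta protocadherins 4 were higher, Pcdh8 (1.29, limma adjusted p = 1.66e-06), Pcdh7 (1.21, 1.08e-06), Pcdh1 (0.47, 0.0148) and Pcdh9 (0.37, 0.0189), and 1 was lower, Pcdh11x (-0.74, 0.000164). Pcdh8 and Pcdh7 thus had ratios near that of Pcdh10. Against the 5 mature neuron genes Pcdh9 lost its call (0.28, adjusted p = 0.0624). In the Kirrel family and its scaffold partners 2 of 5 were higher, Kirrel, the older symbol of Kirrel1 (0.32, 0.0256), and Magi1 (0.37, 0.0152), and both lost the call against the mature neuron genes (adjusted p = 0.115 and 0.0901), while all 5 were higher after centring.

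Among 8 other Eph A receptors Epha7 was higher (0.70, limma adjusted p = 6.85e-05) and Epha4 lower (-0.79, 0.00187), and 6 of the 8, Epha4 included, had a mean below background; after centring 7 of the 8 were higher and 1 lower. Of 4 other A-class ephrins, Efna2 was higher (0.47, 0.028) and Efna4 lower (-0.78, 0.0132). Efna2 lost its call against the mature neuron genes (adjusted p = 0.0699), and Efna4 lost it after centring (0.0547) and quantile normalization (0.093). The B class had 1 of 7 higher, Efnb3 (0.40, 0.0477), and 2 lower, Efnb2 (-1.14, 2.59e-05) and Ephb6, which lay below background (-0.49, 0.0493). Efnb3 lost its call against the mature neuron genes (0.145), as Ephb6 did after centring (0.441).

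Other semaphorins went both ways. Sema3e (0.86, limma adjusted p = 4.21e-05), Sema6c (0.86, 0.0012), Sema4d (0.65, 0.000277) and Sema6d (0.64, 0.00678) were higher. Sema3a (-0.78, 0.00389), a secreted repellent that orders olfactory axons before they reach the bulb, Sema4g (-0.65, 0.000656) and Sema3b, which lay below background (-0.71, 0.0018), were lower, and 11 of the 18 did not pass; after centring 12 of the 18 were higher and 3 lower. Of 11 semaphorin receptors, Plxnb3 (0.64, 0.00536) and Plxna3 (0.56, 0.000935) were higher, while Plxnc1 (-0.70, 0.00479) and Itgb1 (-0.64, 0.000114), both receptors for Sema7a, and Plxnd1 (-0.66, 0.000437) were lower. All of these semaphorin and receptor calls were kept under centring, under quantile normalization and against the mature neuron genes. Plexin C1 and integrin beta 1 are also expressed by immune cells, whose genes were lower in the same libraries, as given above; the part of those cells was not tested.

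Contactins and their partners gave 1 higher gene of 15, Cntnap4 (0.58, limma adjusted p = 0.00196), and 1 lower, Cntn1 (-0.60, 0.00932), which lost its call after centring (0.11) and quantile normalization (0.0551). After centring 13 of these 15 were higher and 0 lower, with a median of 0.52. Among 19 other adhesion and guidance genes, Dscam (0.43, 0.0257), Slit1 (0.41, 0.00295) and Dscaml1 (0.31, 0.0439) were higher, and Alcam (-1.72, 1.75e-06), Nrcam, below background (-1.08, 0.000408), and Robo2 (-0.28, 0.0323) were lower. Dscam and Dscaml1 lost the call against the mature neuron genes (0.0659 and 0.18), and Robo2 turned to 0.07 after centring (0.447), where 11 of the 19 were higher and 2 lower. Of 13 genes listed for the activity pathway of the sensory neuron, 8 were higher and none lower (median 0.30). They were led by the phosphodiesterase Pde1c (0.67, 0.000124), the calcium exchanger Slc24a4 (0.51, 0.00244), the chloride channel Ano2 (0.46, 0.00191) and the kinase Camk4, which lay below background (0.61, 0.00122). All 13 were higher after centring. Against the mature neuron genes 5 of the 13 were higher, and Camk2a and Ric8b lost the call; Adcy3, Cnga2 and Gnal define that scaling, so it is no test of them.

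**Figure D4:**
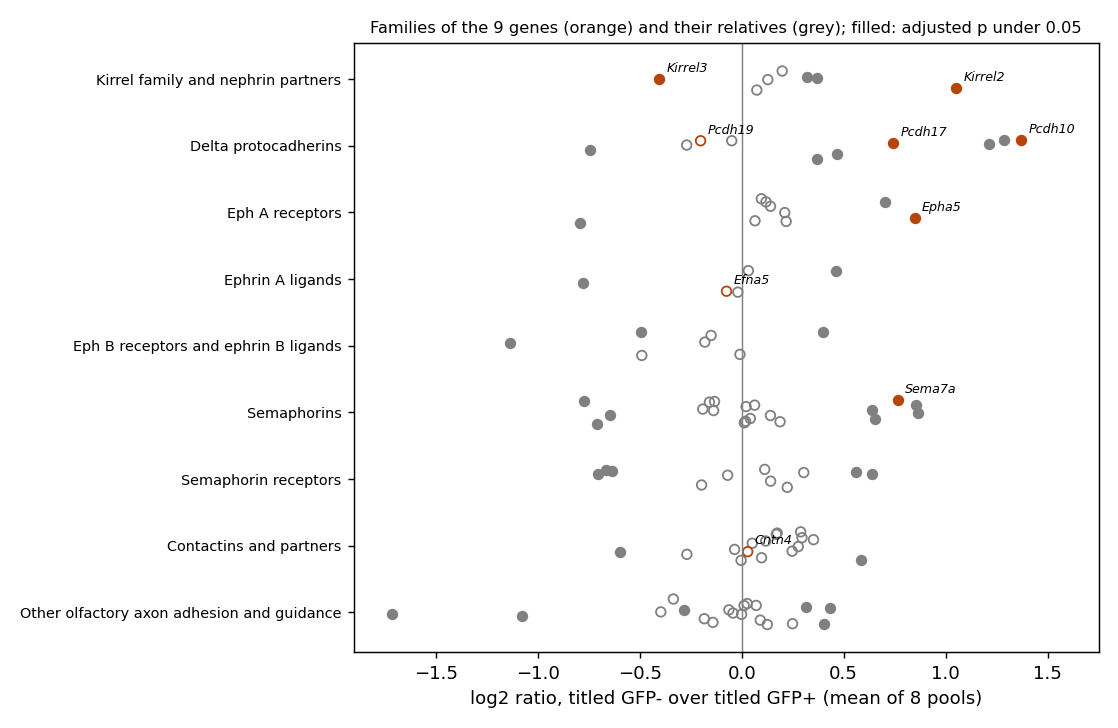
Log2 ratio of libraries titled GFP- over libraries titled GFP+ over 8 pools for the 9 genes (orange, named) and their relatives (grey), 1 row per family list, without the list of the activity pathway; filled points passed at an adjusted p under 0.05. Pcdh10 (1.37), Pcdh8 (1.29) and Pcdh7 (1.21) stand together at the right of the protocadherin row, and Sema7a (0.77) lies among Sema3e (0.86) and Sema6c (0.86) at the right of the semaphorin row.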

How the data were processed

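Per the submitters' processing notes, the authors made the deposited log2 values with Affymetrix Expression Console; which version, which summarisation and which genome build were used is not given in the sources used here. Of 28846 probe sets, 6577 controls and 2697 without exactly 1 gene in the platform annotation were left out. Of the 19572 with 1 gene, the one with the highest mean was kept per gene, which set 67 aside and left 19505 genes. Precision is limited by the number of arrays, and libraries of a group correlated at 0.9896 to 0.9944.

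Genes were tested with limma 3.58.1 under R 4.3.3 (lmFit, then eBayes, two-sided, Benjamini-Hochberg over 19505 genes, threshold 0.05). Gate ratios came from 1 fit of 16 libraries with the pool as a block, because the count of 24 mice implies that both gates of a pool hold the same mice. Their residuals after removing group means correlated at 0.0979 to 0.287. Odor against vehicle within a gate used 8 libraries and no block. Same-numbered odor and vehicle libraries correlated at 0.157 to 0.210 titled GFP+ and at 0.0879 to 0.161 titled GFP-, and a block for the number changed no call of a member. Single values were tested by exact sign flips or permutation over pools, written out in Python 3.11.15. Ranks for Spearman rho came from scipy 1.17.1. The fits were tested on simulated data.

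Members, gene lists and markers were chosen with earlier results of these data known. The text names all 9 members, S100a5, Omp, and up to 4 genes per direction and list with the smallest p. It also names up to 3 markers per list and, among the genes compared, the 3 most like each member. Alternatives were library centring, quantile normalization, leaving out dim genes, averaging probe sets, a trended robust prior, no block, leaving out each pool and, added after seeing the data, scaling to 5 mature neuron genes (Cnga2, Adcy3, Gnal, Rtp1 and Stoml3). Upstream sequences and chromosomes are from RefSeq (GRCm38.p6).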

Additional observations from a re-analysis of the deposited data

Results flagged for a closer look

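In the odor libraries titled GFP-, replicate 3 had a Kirrel2 level of 16.76, set apart from the other 3 by a gap of 0.837 of the group's range. In the vehicle libraries titled GFP-, replicate 4 had a Cntn4 level of 16.84, with a gap of 0.867 of the range. Both gaps pass Dixon's limit for 4 values; 66 groups were examined, and chance alone marks about 1 in 20.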

How the results depend on the processing

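Over all pools, Kirrel2, Pcdh10, Pcdh17, Epha5 and Sema7a kept their direction and call in each of 15 alternatives, the fit with no pool block and leaving out each pool included. Without the pool block, 3 members were called higher in odor pools and 3 in vehicle pools, and 0 lower over all pools or in vehicle pools; adding a block for the replicate number changed no call of a member and left 1 lower gene titled GFP+.

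Centring on library medians gave 14336 higher genes over all pools, 10624 in odor pools and 10501 in vehicle pools, 77 higher relatives, and 0 members lower over all pools or in vehicle pools. It turned Pcdh19 (0.15 over all pools, 0.17 odor, 0.13 vehicle), Efna5 (0.28, 0.22, 0.34), Kirrel3 in odor pools (0.078) and the odor effects on Cntn4 titled GFP- (-0.0036) and Sema7a titled GFP+ (-0.013). Scaling to 5 mature neuron genes gave 1406 higher genes over all pools and 783 in odor pools, 17 higher relatives and 1 lower gene titled GFP+. It turned Cntn4 (-0.066 over all pools, -0.11 odor, -0.022 vehicle, -0.0065 for odor titled GFP-), Omp (-0.0545), the difference for Pcdh19 (-0.0425) and the odor effect on Epha5 titled GFP+ (0.023). Quantile normalization gave 2321 higher genes in odor pools, 2136 in vehicle pools and 1 lower titled GFP+, and turned Cntn4 in odor pools (-0.014) and the difference for Pcdh19 (-0.0038). Without dim genes 1 gene was lower in the difference and 0 titled GFP+, and the robust prior called 1 lower titled GFP-.

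Leaving out 1 pool at a time, higher genes numbered 935 to 1162 in odor pools and 777 to 935 in vehicle pools, members called lower in vehicle pools 0 to 1, and lower genes titled GFP+ 0 to 2. Log2 values changed sign for Cntn4 (-0.0104 to 0.0569 over all pools, -0.0184 to 0.0802 odor, -0.0486 to 0.0861 vehicle, -0.0584 to 0.0762 for the difference, -0.0202 to 0.0704 for odor titled GFP-, -0.0185 to 0.0628 titled GFP+), Efna5 in vehicle pools (-0.0915 to 0.0448) and the difference for Pcdh19 (-0.10 to 0.20). They also did for odor titled GFP- in Kirrel2 (-0.10 to 0.61), Kirrel3 (-0.20 to 0.20) and Pcdh17 (-0.18 to 0.18), and titled GFP+ in Epha5 (-0.11 to 0.0517) and Sema7a (-0.0787 to 0.0637). None of these values passed the test before or after except Efna5 after centring over all pools, and the causes were not tested. Values near background are compressed, which limits ratios of dim relatives.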
